A study of Mus musculus with 4 samples.

Results

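Zeb1 occupancy was examined at 10 genes of the epithelial program, Cdh1, Epcam, Crb3, Llgl2, Ocln, Cldn4, Cldn7, Pkp3, Esrp1 and Esrp2, in mESC kept in GS. The genes were given by name as epithelial targets repressed by Zeb1. Their peaks were the regions of the deposited list assigned to those gene symbols. Of 17435 Zeb1 peaks in the list, 13 were assigned to the 10 genes, and 9 of the 10 genes had at least 1 peak. Over 21031 protein-coding genes of RefSeq, the share with an assigned peak was 53.2%.

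Zeb1 ChIP followed by sequencing was carried out to find the chromatin regions with which Zeb1 associates in the self-renewing state. The labels describe 3 Zeb1 ChIP libraries and 1 input library, which is sheared chromatin without antibody. All came from mouse D3 cells, a pluripotent line of embryonic origin used at passages 5 to 8 and grown without feeder cells. Every library shared the same medium, NDiff N2B27 supplemented with PD0325901 at 1 μM to block MEK, CHIR99021 at 3 μM to block GSK-3, and LIF at 20 ng/mL. After cross-linking in 1% formaldehyde, chromatin was broken into fragments of about 200 bp and precipitated with 8 μg of the Zeb1 antibody H-102. Each peak carries a mean number of treatment reads, a mean number of input reads and a mean enrichment, the ratio of treatment to input after scaling for mapped reads, which is not the plain quotient of the mean reads. The list pools the libraries, so no SD accompanies a value and the spread between the 3 ChIP libraries could not be measured. Reads were drawn to equal number per sample, but the mapped reads left in each library are unknown from the list.

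Zeb1 is a zinc finger transcription factor that binds E-boxes, short DNA elements of the form CANNTG, with a preference for CACCTG, and E-box below stands for CACCTG on either strand unless another form is named. In epithelial-to-mesenchymal transition it is known to repress genes for cell adhesion, cell junctions and apicobasal polarity, Cdh1 being the classical example. Pluripotent stem cells themselves grow as epithelial-like colonies held together by the product of Cdh1. The list measures occupancy and not expression, which was not analysed here, so that the genes are called epithelial genes below and repression by Zeb1 was not tested.

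The E-box sequences around the promoters are shown first, because this element was denser in the 10 promoter peaks of the 9 genes with a peak than in most other promoter peaks of the list. The RefSeq promoter table of GRCm38.p6 held entries, each of 300 bases, for 5 of the 10 genes, Crb3, Epcam, Cldn7, Cldn4 and Ocln. No entry was found for Cdh1, Esrp1, Esrp2, Llgl2 and Pkp3. At least 1 entry of each of the 5 genes held CACCTG or its reverse complement CAGGTG, against 22.0% of 16853 protein-coding genes with an entry. The 250 bases before a TSS are printed 5′ to 3′ for 4 genes, with CACCTG on either strand in capitals. They are chr17:57061951-57062200 (plus strand) for Crb3, chr17:87635729-87635978 (plus strand) for Epcam, chr11:69965171-69965420 (plus strand) for Cldn7 and chr5:134946935-134947184 (minus strand) for Cldn4.
Crb3: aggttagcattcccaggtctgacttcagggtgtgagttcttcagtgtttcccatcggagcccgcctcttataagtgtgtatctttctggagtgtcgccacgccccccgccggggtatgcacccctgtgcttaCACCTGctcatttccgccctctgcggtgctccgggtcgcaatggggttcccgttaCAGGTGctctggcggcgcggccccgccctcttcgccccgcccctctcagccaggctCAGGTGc
Epcam: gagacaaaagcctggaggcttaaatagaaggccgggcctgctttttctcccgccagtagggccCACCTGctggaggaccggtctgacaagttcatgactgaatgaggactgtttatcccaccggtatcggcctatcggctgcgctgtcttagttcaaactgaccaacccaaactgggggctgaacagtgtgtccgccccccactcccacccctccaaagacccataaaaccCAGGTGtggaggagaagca
Cldn7: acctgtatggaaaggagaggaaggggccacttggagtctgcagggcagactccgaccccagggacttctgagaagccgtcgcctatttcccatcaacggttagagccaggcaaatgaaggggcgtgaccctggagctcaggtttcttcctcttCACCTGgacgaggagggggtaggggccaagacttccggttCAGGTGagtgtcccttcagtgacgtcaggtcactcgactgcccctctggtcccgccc
Cldn4: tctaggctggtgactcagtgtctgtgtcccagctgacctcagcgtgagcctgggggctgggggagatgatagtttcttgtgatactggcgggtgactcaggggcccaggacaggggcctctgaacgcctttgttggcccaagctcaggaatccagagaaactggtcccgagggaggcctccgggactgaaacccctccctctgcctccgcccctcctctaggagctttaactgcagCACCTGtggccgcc

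The stretch of Crb3 held 3 E-boxes, those of Epcam and Cldn7 held 2 each, and that of Cldn4 held 1. The first 3 lie inside Zeb1 peaks, while Cldn4 had no peak in the list. None of the 4 stretches overlapped an exon of a curated transcript, and the Cldn7 stretch precedes the downstream of the 2 annotated TSSs of that gene. The Cldn7 promoter entry at the upstream TSS held 0 E-boxes. For Ocln, a site of 30 bases at chr13:100552694-100552723 (minus strand) is shown, which covers the upstream of the 2 annotated TSSs and the first 25 bases of exon 1 of the transcripts that start there.
Ocln: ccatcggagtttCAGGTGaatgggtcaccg

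A promoter peak was defined by a centre less than 5 kb from the TSS of the assigned gene. Of the 10 genes, 9 had a promoter peak, against 45.0% of protein-coding genes. Pkp3 had 2 promoter peaks, so that 10 promoter peaks belonged to the 9 genes, and the 3 remaining peaks were all assigned to Llgl2 at greater distance. Since the genes were chosen with results of these data known, the counts describe the list and were given no test. The 5 kb limit was applied to the deposited distance, whereas the distances below were recomputed to the reference TSS nearest to the peak centre and are positive downstream. The 2 differed for Cdh1, with 357 bp deposited and 375 bp recomputed, and for Crb3, with -1052 and -976 bp.

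**Figure D1:**
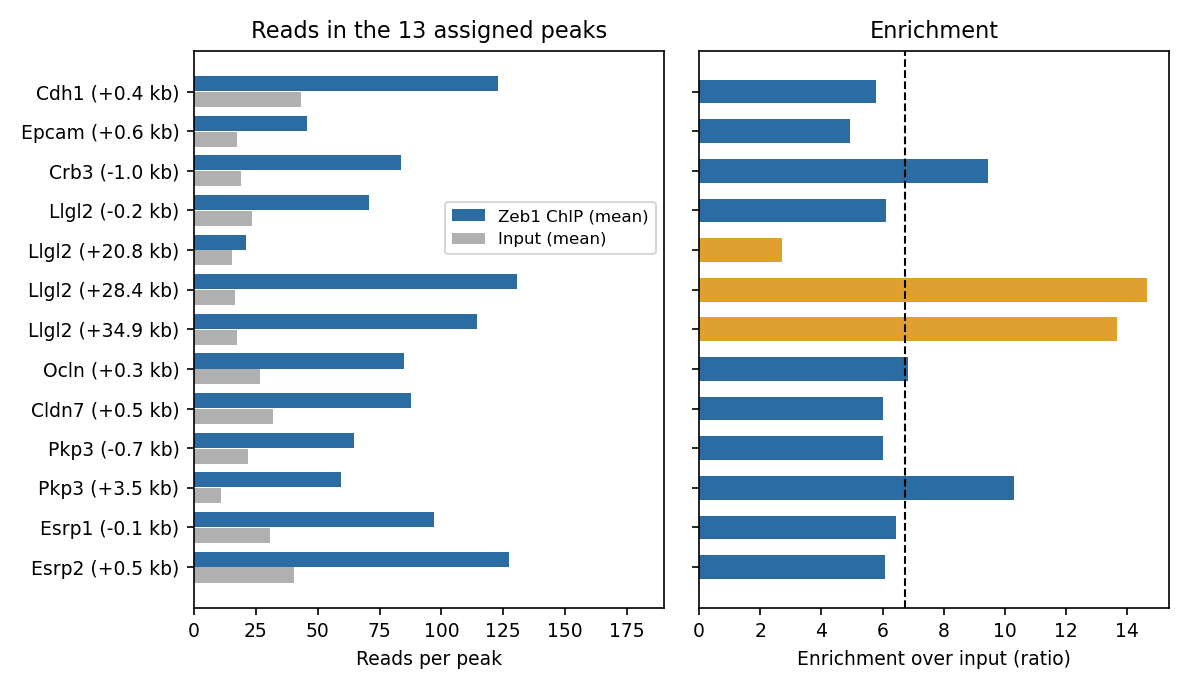
Mean Zeb1 ChIP and input reads per peak (left) and enrichment over input (right, ratio) of the 13 peaks assigned to 9 epithelial genes, with the distance of the peak centre from the nearest TSS of the gene. Promoter peaks are blue and peaks beyond 5 kb are orange in the right panel, the dashed line is the median enrichment of all promoter peaks (6.74), and the highest bars, at 14.6 and 13.7, and the lowest, at 2.7, are the 3 distal peaks of Llgl2.

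Among the adhesion genes, Cdh1 encodes E-cadherin, the transmembrane protein of adherens junctions. Its peak (chr8:106602551-106604900, 2350 bp, mm10) held 123 treatment reads against 43.4 in the input, with an enrichment of 5.78. The peak spanned the TSS, from 799 bp upstream to 1550 bp downstream, with its centre in intron 1. The treatment reads were higher than in 96.1% of promoter peaks, but the input reads were higher than in 99.0% of them, and the enrichment exceeded that of only 32.6%. The Cdh1 promoter was therefore rich in reads in both kinds of library, and its place in the list depends on whether reads or the ratio are compared. Across 10697 promoter peaks, Spearman's rho between input reads per kb and enrichment, a ratio that has the input as its divisor, was -0.614.

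Epcam encodes an epithelial adhesion molecule that is also present on embryonic stem cells. Its peak (chr17:87635301-87637800, 2500 bp) had 45.5 treatment reads and 17.5 input reads, and its enrichment of 4.95 was the lowest among the promoter peaks of the 9 genes. The centre lay 571 bp downstream of the TSS, in exon 2 of 10, in the part annotated as 5′ UTR. In treatment reads the Epcam peak stood above 35.0% of all promoter peaks, and it was the only promoter peak of the 9 genes below the median of 52.6 reads.

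Over all 13 peaks, the polarity genes gave the widest range of enrichment among the roles, from 2.7 to 14.6, both ends being distal peaks of Llgl2. Among promoter peaks alone, the polarity genes ranged from 6.11 to 9.44, and the 2 peaks of the desmosomal gene Pkp3 from 6 to 10.3. Crb3 encodes a small transmembrane protein of the apical Crumbs complex. Its peak (chr17:57058701-57063750, 5050 bp) was the longest of the 10 promoter peaks and held 83.9 treatment reads against 19.1 in the input, an enrichment of 9.44, above 82.7% of promoter peaks. The peak reached from 3500 bp upstream to 1549 bp downstream of the TSS and also covered 2 TSSs of the neighbouring gene Slc25a23, which is transcribed in the other direction, so that the signal cannot be divided between the 2 genes.

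Llgl2 encodes a homologue of the Drosophila Lgl protein, which acts at the basolateral membrane, and had 4 peaks. The promoter peak (chr11:115822751-115825050, 2300 bp) held 70.7 treatment reads against 23.4 in the input, an enrichment of 6.11. The peak with the highest enrichment of all 13 had its centre in intron 17 of 25 (chr11:115848801-115856100), 28392 bp downstream of the TSS that the deposited distance refers to. The authors' annotation classed it at an Ensembl start site, and the Llgl2 peak in exon 5 at an Ensembl end site. Both sites carried the same Ensembl gene ID, and both peaks were assigned to Llgl2. The ID was not matched to a gene name here, so the start site may be another one of Llgl2 itself. It held 131 treatment reads against 16.7 in the input, an enrichment of 14.6, and was 7300 bp long. The next peak (chr11:115857251-115860600) held 114 treatment reads against 17.3 in the input, an enrichment of 13.7. These 2 peaks were above 95% of the list in enrichment, with percentiles of 96.5 and 95.4.

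The last Llgl2 peak began beyond the end of that gene and spanned the TSS of Myo15b, 1000 bp from the peak centre, so that its assignment to Llgl2 follows the authors' annotation and not the nearest RefSeq start site. It was also the only peak of the 13 without a CACCTG element, although it held 1 match to the 8-letter Zeb1 pattern, which also takes TACCTG. Another Llgl2 peak, in coding exon 5 of 26 (chr11:115843751-115846000), was close to the lowest values of the list, with 21 treatment reads against 15.5 in the input, an enrichment of 2.7. The lowest values in the whole list were 20 treatment reads and an enrichment of 2. Caskin2, on the other side of Llgl2, had a peak within 10 kb of the gene with an enrichment of 8.75.

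The tight junction genes comprised Ocln, Cldn7 and Cldn4. Ocln encodes occludin, a membrane-spanning protein of the tight junction strand, and its peak (chr13:100551001-100553350, 2350 bp) held 85 treatment reads against 26.8 in the input, an enrichment of 6.84. Cldn7 encodes a claudin, and its peak (chr11:69964501-69967400, 2900 bp) held 87.7 treatment reads against 32 in the input, an enrichment of 6.01. The 2 peaks were alike in treatment reads, and both covered the 2 annotated TSSs of their gene. A further peak near Ocln was assigned to Gtf2h2, with an enrichment of 8.97.

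Cldn4, another claudin, had no assigned peak, and no peak touched the gene or its flanks of 5 kb. The edge of the nearest peak was 38.7 kb away, at the promoter of Cldn3, a claudin gene next to Cldn4 that was singled out after its values were seen. The Cldn3 peak held 85.3 treatment reads against 19.1 in the input, an enrichment of 9.36. The list leaves out peaks under its limits, peaks present in a single library and blacklisted regions, so that the absence of a Cldn4 peak from it does not show that Zeb1 was absent there.

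Pkp3 encodes plakophilin 3, a protein of the desmosomal plaque. Its first promoter peak (chr7:141077401-141080800, 3400 bp) covered both annotated TSSs and held 64.5 treatment reads against 22 in the input, an enrichment of 6. The other (chr7:141081901-141084600, 2700 bp) lay within the gene with its centre in an intron, 3481 bp downstream of the nearest TSS, and held 59.4 treatment reads against 11 in the input, an enrichment of 10.3. The intragenic peak thus had fewer treatment reads than the peak at the TSS and a higher enrichment, with fewer input reads than 85.1% of promoter peaks. The 3 peaks within 10 kb of Pkp3 on either side were assigned to B4galnt4 and Sigirr, with enrichment between 4.48 and 4.9.

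Esrp1 and Esrp2 encode RNA-binding proteins that direct the epithelial pattern of alternative splicing. The Esrp1 peak (chr4:11384801-11388950, 4150 bp) had its centre 92 bp before the TSS and held 97.2 treatment reads against 30.9 in the input, an enrichment of 6.43. The Esrp2 peak (chr8:106134301-106138550, 4250 bp) was centred 549 bp downstream, in coding exon 2 of 15, and held 127 treatment reads against 40.6 in the input, an enrichment of 6.08. This peak also spanned the TSS of 1810019D21Rik on the opposite strand, 1025 bp from the peak centre, so that here too the signal cannot be divided between the 2 genes. The 2 paralogues had long peaks of like enrichment, each longer than 95% of promoter peaks, with percentiles of 95.6 and 96.0. A second region inside Esrp2 (chr8:106131651-106134200), assigned by the authors to the same neighbour, held 46 treatment reads against 15.5 in the input, an enrichment of 5.75. The peak of Dpy19l4, within 10 kb of Esrp1, had an enrichment of 5.77.

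Over the 9 genes, the best promoter peak had a median enrichment of 6.11, with an SD over genes of 1.78. The median over 9466 protein-coding genes with a promoter peak was 6.84, so that the epithelial genes were not among the most enriched promoters of the list. Of their 10 promoter peaks, 3 were above the median enrichment of all promoter peaks, while 9 were above the median in treatment reads and 9 in input reads. All 10 were longer than the median promoter peak of 1950 bp, and per kb of peak 5 of 10 were above the median in treatment reads and 5 of 10 in input reads. Across all 10697 promoter peaks Spearman's rho between length and treatment reads was 0.68. Cdh1 was high also per kb, with 52.3 treatment reads and 18.5 input reads per kb, above 99.1% and 99.4% of promoter peaks, while its length exceeded that of 70.3%. Ocln had 36.2 treatment reads per kb, above 86.1%. The lowest per kb were Crb3 (16.6, above 6.05%), Epcam (18.2, above 10.0%) and the TSS peak of Pkp3 (19.0, above 12.6%). In reads per peak, Crb3 stood above 85.2% of promoter peaks.

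CACCTG was then searched on both strands of each peak. All 10 promoter peaks of the epithelial genes held the E-box, a description that says little by itself, since 81.8% of the 10687 promoter peaks of other genes held it too. In the central 200 bp, 7 of 10 held it against 17.1%, and in the central 500 bp 9 of 10 against 37.7%. The number of E-boxes per peak ranged from 5 in Epcam to 13 in Crb3, while the median promoter peak of other genes held 2. Among promoter peaks of other genes in the same range of GC content and length, the median was 3. Over whole peaks the difference therefore lay in the number of elements more than in their presence. The number also goes with peak length, with a Spearman's rho of 0.389 across all promoter peaks.

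E-box density, the number of CACCTG elements per kb of peak, was used from here on. The measure was chosen after the values were seen, as were the windows, pairs and ranges below. The genes were given as targets of Zeb1, which prefers CACCTG. Their E-box counts and densities, in peaks and around the TSS, are therefore not independent of that choice. The Cdh1 peak held 10 E-boxes, or 4.26 per kb, and only 23 of all promoter peaks had a higher density. The promoter peak of Llgl2 held 9, or 3.91 per kb, and the intragenic peak of Pkp3 held 10, or 3.70 per kb. The density of these 3 peaks was higher than in 99.8%, 99.6% and 99.4% of promoter peaks.

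Cldn7 followed with 9 E-boxes, or 3.10 per kb, Ocln with 7, or 2.98 per kb, and Crb3 with 13, or 2.57 per kb. The densities of Esrp1 (2.17 per kb), Esrp2 (2.12 per kb), the TSS peak of Pkp3 (2.06 per kb) and Epcam (2 per kb) were close to each other. All 10 promoter peaks were above the upper quartile of 1.43 per kb, against 24.6% of promoter peaks of other genes. Above the upper decile of 2.07 per kb were 8 of the 10, against 9.63%, the exceptions being Epcam and the TSS peak of Pkp3.

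**Figure D2:**
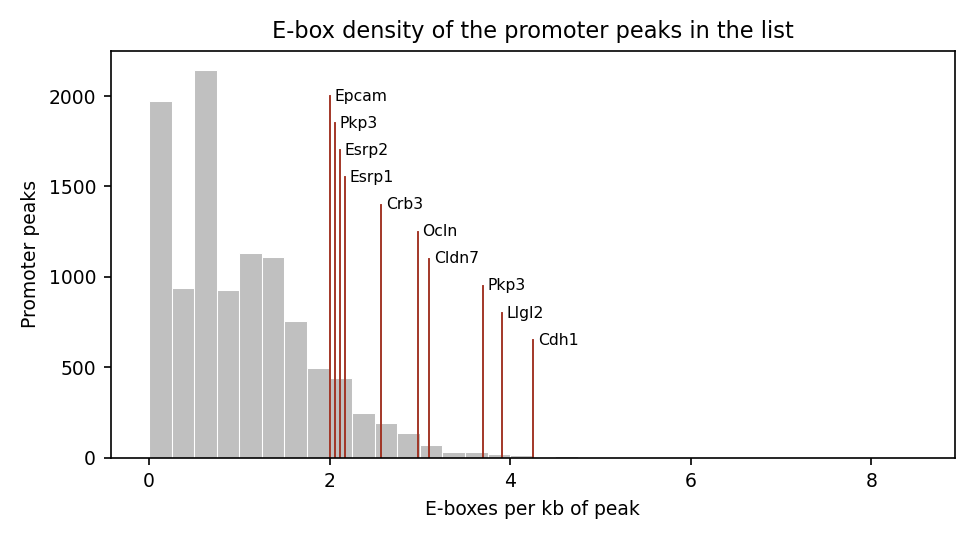
Number of promoter peaks in the list (grey bars, y axis) by the number of CACCTG elements per kb of peak (x axis), with red lines at the 10 promoter peaks of the epithelial genes, whose heights have no meaning. The lines lie between 2 and 4.26 per kb, to the right of the upper quartile of 1.43.

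The difference in density was also present among peaks of like base composition and length. The GC content of the 10 peaks was between 52.4 and 59.1%, with a median of 57.4% against 56.8% in promoter peaks of other genes. Among 1712 promoter peaks of other genes inside the same range of GC content and of length (2300 to 5050 bp), the median density was 0.99 per kb, against 2.78 per kb in the 10 peaks. The other E-boxes of the form CANNTG were not denser in the same way. Summed over peaks, CACCTG occurred 2.75 times per kb in the 10 peaks and 1.01 times per kb in promoter peaks of other genes, a ratio of 2.73. The ratio was 1.00 for CAGCTG and 0.97 for CACGTG, and the highest among the 9 other elements was 1.47, for CATATG, with 4 sites in the 10 peaks.

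The elements were also close together. The central 1000 bp held 2 or more E-boxes in 9 of the 10 peaks, against 27.0% of promoter peaks of other genes, with 7 in the intragenic peak of Pkp3, 6 in Cdh1 and 5 in Llgl2. A pair of E-boxes starting within 50 bp of each other was present in 9 of 10, against 11.8%, a share that depends on the number of elements per peak. The closest pair was 6 bp from start to start in Cdh1, so that the 2 elements directly abutted, 9 bp in Llgl2 and in the TSS peak of Pkp3, 11 bp in Cldn7 and 13 bp in Ocln. Epcam was the exception, with 168 bp between its closest E-boxes.

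Of the 10 E-boxes in the intragenic peak of Pkp3, 3 lay in coding exon 4 of 14 of the longer transcript. They are shown in capitals in a stretch of 169 bases at chr7:141082966-141083134 (plus strand, GRCm38.p6), since this peak had the most E-boxes in its centre among the 10.
Pkp3: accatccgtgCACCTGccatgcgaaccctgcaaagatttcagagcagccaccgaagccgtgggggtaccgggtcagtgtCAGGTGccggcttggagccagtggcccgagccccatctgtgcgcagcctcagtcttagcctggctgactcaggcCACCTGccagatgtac

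The positions of the E-boxes were read relative to the TSS nearest to the peak centre. Of 88 E-boxes in the 10 peaks, 36 lay within 500 bp of that TSS, 35 were upstream of it and 53 downstream, and 46 read CACCTG on the plus strand of the chromosome. The E-box nearest to the TSS was 12 bp upstream in Cdh1, 7 bp upstream in Crb3 and 19 bp upstream in Epcam. In Cdh1, 3 E-boxes began at 68, 62 and 12 bp before the TSS. Crb3 had 4 E-boxes within 200 bp of the TSS and Cldn7 had 5, whereas Esrp2 had 1, and most of its 9 E-boxes lay more than 1 kb downstream.

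**Figure D3:**
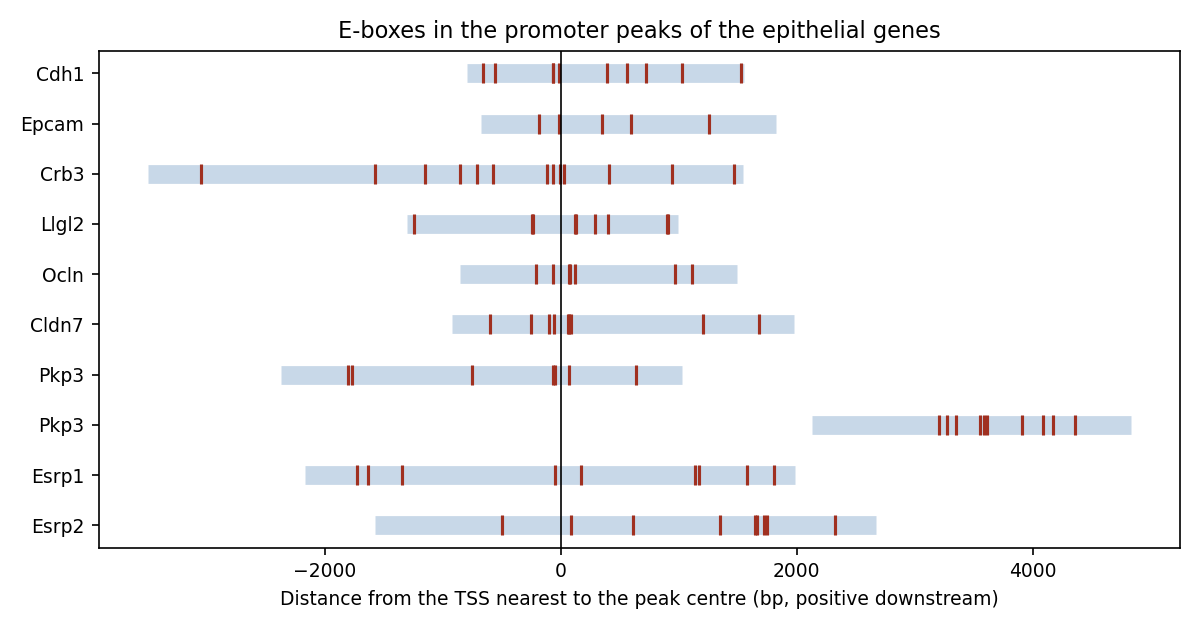
Map of the 10 promoter peaks (pale bars) with each CACCTG element on either strand (red ticks), by distance in bp from the TSS nearest to the peak centre (vertical line at 0, positive downstream). Within 500 bp of the TSS lie 6 of 9 E-boxes in Llgl2 and in Cldn7, 5 of 7 in Ocln, 5 of 13 in Crb3 and 4 of 10 in Cdh1, and the intragenic peak of Pkp3 holds all of its 10 between 3207 and 4362 bp.

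Because a peak's length and place depend on the calling, E-boxes were also counted in a fixed window of 500 bp to either side of the most upstream annotated TSS, which needs no peak. Of the 10 epithelial genes, 6 had 3 or more E-boxes there, against 7.12% of 21000 protein-coding genes. Llgl2 had 6, Crb3 and Ocln 5 each, Cdh1 4, and Epcam and Cldn4 3 each, while Cldn7, Pkp3, Esrp1 and Esrp2 had 2. Cldn4, the gene without a peak, was thus not poorer in E-boxes around its TSS than Epcam. The share with 3 or more was 7.58% in genes with a Zeb1 promoter peak and 6.75% in genes without, so that over all genes the density of the element differed little with occupancy.

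**Figure D4:**
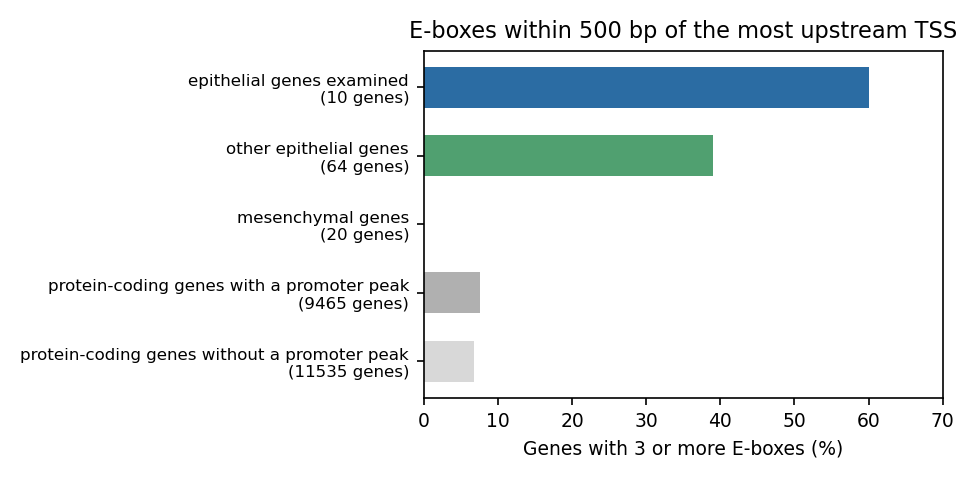
Percentage of genes (x axis) with 3 or more CACCTG elements within 500 bp of the most upstream annotated TSS, for the 10 epithelial genes, the lists of other epithelial and mesenchymal genes, and protein-coding genes with and without a Zeb1 promoter peak. The bars are at 60% for the 10 genes, 39.1% for other epithelial genes, 0% for mesenchymal genes, 7.58% with a peak and 6.75% without.

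Within the list, E-box density did not go with enrichment. Across 10697 promoter peaks, which share the same libraries, Spearman's rho between the 2 measures was -0.011. The median enrichment was 6.6 in 1944 promoter peaks without the element and 7.07 in 448 with 7 or more. Among the promoter peaks of the epithelial genes, the highest density (Cdh1, 4.26 per kb) went with an enrichment of 5.78. The highest enrichment, 10.3 in the intragenic peak of Pkp3, went with a density of 3.70 per kb. The distal Llgl2 peak at Myo15b reached an enrichment of 13.7 with no CACCTG and 1 match to the 8-letter pattern.

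A list of 64 other epithelial genes was set beside the 10. Of these, 49 had a promoter peak, or 76.6%, with a median best enrichment of 6.61. The share was above the 45.0% of protein-coding genes, and the enrichment was again close to their median. The highest values belonged to Nectin1 (14.1), Pard3 (12.5), Krt8 (12.3), Cldn23 (11.4) and Tmem30b (10.99), and the lowest to Pkp2 (3.79), Elf3 (4.05), Pard6a (4.36), Grhl1 (4.41) and Lsr (4.61). No peak was assigned to 12 of the 64 genes, among them Cldn1, Cldn8, Cgn, F11r, Crb1, Patj, Ctnnd1, Grhl3, Ehf and Rab25. By role, a promoter peak was present at 10 of 14 tight junction genes, 9 of 12 polarity genes and 11 of 12 genes of adherens junctions and desmosomes. It was also present at 6 of 8 epithelial transcription factors and at 13 of 18 genes of the list outside these roles.

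Of 20 mesenchymal genes, 9 had a promoter peak, or 45%, which was close to the share of all protein-coding genes. Mmp14 (11.1), Vim (9.31) and Cdh2 (8.84) had the highest enrichment, and Acta2, Tagln, Cald1, S100a4 and Sparc had no peak. E-box density differed between the lists more than enrichment did, although the 10 genes had been given as targets of Zeb1. The median density of promoter peaks was 2.78 per kb for the 10 epithelial genes, 1.55 per kb for the other epithelial genes and 0.56 per kb for the mesenchymal genes, while the median of best enrichment was 6.11, 6.61 and 6.1. Of the promoter peaks of other epithelial genes, 26 of 50 were above the upper quartile of density, against 1 of 11 for the mesenchymal genes. These differences were described and not tested, since peaks of 1 list are not replicates.

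**Figure D5:**
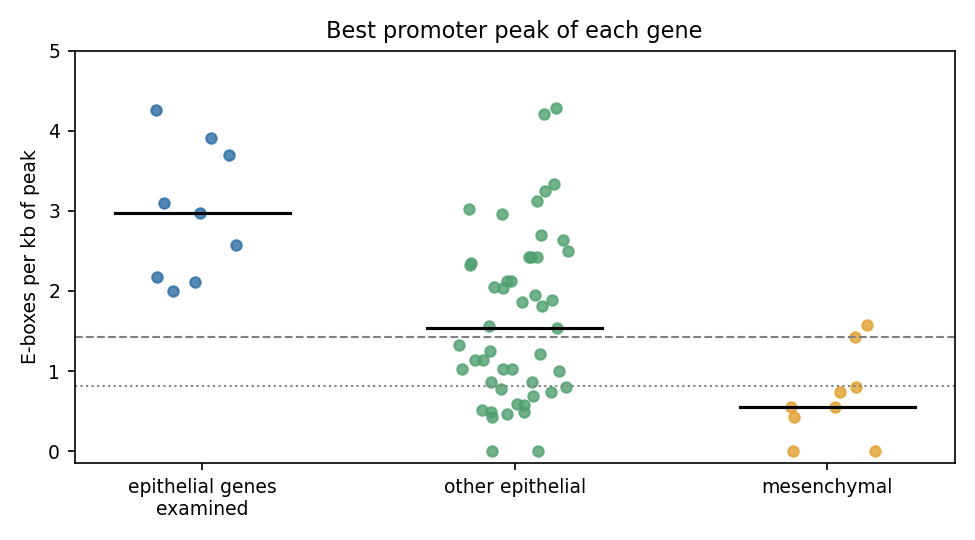
CACCTG elements per kb (y axis) in the promoter peak with the highest enrichment of each gene (points), for the epithelial genes examined, the other epithelial genes and the mesenchymal genes, with the median of each list as a black line. The dotted and dashed lines are the median (0.82) and upper quartile (1.43) of all promoter peaks, and each of the 9 genes of the left column lies above both.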

How the data were processed

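Zeb1 ChIP-seq of mESC in GS comprised 3 Zeb1 ChIP libraries and 1 input library. Per the submitters' notes and methods, Ion Torrent reads were trimmed, drawn to equal number, aligned to mm10 (GRCm38) with STAR 2.4.2a, freed of duplicates with Picard 1.136, checked with FastQC 0.11.2, called as broad peaks against the input with PeakRanger and annotated with HOMER 4.7. Peaks with at least 20 treatment reads, an enrichment of at least 2 and an FDR under a limit were kept outside blacklisted regions, and those present in at least 2 libraries were unified. The deposited treatment and input reads are signal values that the authors averaged per peak. The deposited enrichment is a ratio of treatment to input, scaled for mapped reads and averaged by the authors. The deposited p-value was 0 in all 17435 peaks and was not used. The deposited distance runs from the peak centre to the TSS.

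The 10 genes and both gene lists were chosen with earlier results of these data known. Peaks were matched to the 10 genes by symbol and to the lists and background by gene ID. Named besides the 10 were genes with a peak within 10 kb of one, the 5 highest and 5 lowest and up to 10 without a peak of the other epithelial genes, and the 3 highest and up to 5 without a peak of the mesenchymal genes. Cldn3, Slc25a23, Myo15b and the genes of the closing observations were named outside this rule, after their values were seen. Sequence and transcripts came from RefSeq, GRCm38.p6, the assembly of mm10, and percentiles give the share of peaks with a lower value. CACCTG was counted on both strands, and as an alternative CNCACCTG, CNTACCTG, TNCACCTG and TNTACCTG together, which partly overlap it. The counting was checked on simulated sequences. No test was run, since the table pools the libraries. Python 3.11.15, pandas 2.3.3, NumPy 2.4.6, SciPy 1.17.1, pysam 0.24.0 and matplotlib 3.10.9 were used.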

Additional observations from a re-analysis of the deposited data

How the results depend on the processing

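The counts of genes and peaks stayed within 1.5 times their value under every alternative run: promoter limits of 1 and 10 kb, the TSSs of the reference, an enrichment of at least 5, at least 40 treatment reads, the 8-letter Zeb1 pattern and narrower windows. With the limit at 1 kb, 8 of the 10 genes had a promoter peak, as did 45 of the 64 other epithelial genes and 8 of the 20 mesenchymal genes. The share of all protein-coding genes was not computed at this limit, so these counts cannot be read against it. Crb3 was lost by its deposited distance of -1052 bp, while the recomputed -976 bp would have passed. With an enrichment of at least 5, 8 of the 10 genes kept a promoter peak, Epcam being lost, and 40 of the 64 other epithelial genes, 6 of the 20 mesenchymal genes and 37.0% of protein-coding genes had one. The median best enrichment ranged from 6.05 to 6.27 when the distance, the choice of peak or the threshold was changed. It moved to 3.08 when treatment reads plus 1 were divided by input reads plus 1, which leaves out the scaling for mapped reads, and the same ratio had a median of 3.15 over all protein-coding genes with a promoter peak. For E-box density, alternatives were chosen after seeing the data. Its median was 2.78 per kb, 3.5 in the central 1000 bp, 3.40 in peaks under 3 kb, 2.57 without Cdh1 and 2.98 with an enrichment of at least 5, against 0.82, 1, 0.77, 0.82 and 0.82 in promoter peaks of other genes. With the 8-letter pattern it was 2.24 against 0.65. No paired analysis was possible because the values of the libraries were averaged, and for the same reason no library could be left out. Peaks near 20 treatment reads rest on few reads, and the equal number of reads drawn per library limits which weaker peaks the list could hold.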

Other observations

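Several genes of the other epithelial list, named after their values were seen, had promoter peaks as dense in E-boxes as those of the 10 genes. Mal2, which encodes a transmembrane protein of apical transport, had 6 E-boxes in a peak of 1400 bp, or 4.29 per kb, with 25 treatment reads and an enrichment of 9.65. Ap1m2, an epithelial subunit of a clathrin adaptor, had 8 E-boxes, or 4.21 per kb, and an enrichment of 5.8. Spint2, a serine protease inhibitor, had 11, or 3.33 per kb, with 124 treatment reads against 41.6 in the input and an enrichment of 6.1, values close to those of the Cdh1 peak. Dlg1 (3.24 per kb), Krt19 (3.13 per kb) and Afdn (3.02 per kb) followed.

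The 25 promoter peaks with the highest E-box density in the whole list included those of Cdh1, Mal2 and the polarity gene Pard3b (4.85 per kb), and the densest belonged to genes outside the epithelial lists. The genes other than Cdh1 were named after their values were seen. Qrich2 had 20 E-boxes in 2450 bp, or 8.16 per kb, and Fgd4 had 13 in 2100 bp, or 6.19 per kb. On Chr. 11, 2300003K06Rik (6 per kb), Gm11596 (5.52 per kb), Krtap4-9 (5.16 per kb), Krtap4-16 (4.83 per kb) and Gm11938 (4.62 per kb) were also among the 25. These 5 peaks lie near each other, between chr11:99602401 and chr11:99852000. They are alike in length (1300 to 1550 bp) and in deposited distance (258 to 366 bp). Whether their sequences are copies of each other was not examined, so they should not be read as 5 separate instances.

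The base after CACCTG did not set the epithelial genes apart. In their 88 sites it was C in 34.1%, G in 27.3%, T in 23.9% and A in 14.8%, against 35.0, 28.7, 19.3 and 17.0% of 23754 sites in promoter peaks of other genes.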
